A study of Mus musculus with 8 samples.

Results

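The replacement histone genes described here are H2afz, H2afv, H2afx, H2afj, H2afy, H3f3a and H3f3b, 7 genes of mouse that code for histone variants of the H2A and H3 families. They were chosen by name, from the gene symbols of the deposited tables, and by no rule on a measured value, though earlier results of these data were known. The tables held 48676 rows with 44363 distinct symbols, and the 7 symbols stood on 10 of those rows. H2afz, H2afv and H3f3b each had a second row, and the row with the highest mean level over all libraries stands for the gene below.

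Nuclear RNA of NIH3T3 cells, an established line of mouse embryonic fibroblasts, was sequenced after 2 h of heat shock at 44 °C, 2 h of osmotic stress with 200 mM KCl, 2 h of oxidative stress with 0.2 mM H2O2, and in untreated cells. All 4 groups shared the cell line, the enrichment of nuclei, the removal of ribosomal RNA and the strand-specific library type, and no group carried an altered gene. Each group had 2 libraries, 1 in each of 2 tables. The values are RPKM, reads scaled to the length of the gene model and to the mapped reads of the library, so levels of different genes are compared here per length.

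Histones are the proteins around which DNA is wound. Replication-dependent histone genes supply most of them while DNA is copied, and their messages end in a short hairpin, the histone stem-loop, in place of a poly(A) tail. Replacement histones come from genes whose messages carry a poly(A) tail, are made also outside of DNA replication, and take the place of the standard histones at particular sites in chromatin. H2A.Z, coded by H2afz and H2afv, is known for its place beside the start sites of genes. H2A.X, coded by H2afx, is phosphorylated around DNA breaks. MacroH2A1, coded by H2afy, carries a large extra domain and is enriched on silent chromatin. H3.3, coded by both H3f3a and H3f3b as the same protein, is deposited in transcribed genes and at telomeres.

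The hairpin sets 1 of the genes apart by sequence. In the transcripts of GENCODE M21 (GRCm38), a hairpin was searched as GG, any 3 bases, TTTT, any base, A, any 3 bases and CC, with the last 6 bases the reverse complement of the first 6, on the transcript's own strand. It was found in 55 of 21877 protein-coding genes (0.251%), in 40 of 61 annotated replication-dependent core histone genes (65.6%) and in 1 of the 7 replacement histone genes, H2afx. The 2 hairpins below show that H2afx holds the same element as a standard H2A gene, with the hairpin of 16 bases in capitals between 6 flanking bases on each side.
H2afx: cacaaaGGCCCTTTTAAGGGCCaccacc
Hist1h2ab: aacaaaGGCTCTTTTCAGAGCCacccac
The H2afx hairpin lies at chr9:44335240-44335255 on the plus strand of GRCm38, in the 3′ UTR of the single exon of transcript H2afx-201. That transcript is 1384 bases long and runs on for 822 bases after the hairpin, and a poly(A) hexamer (AATAAA or ATTAAA) stands within its last 50 bases. The Hist1h2ab hairpin lies at chr13:23751572-23751587 on the plus strand, and transcript Hist1h2ab-201, of 473 bases, ends 11 bases after it. A poly(A) hexamer within the last 50 bases was found for 6 of the 7 replacement histone genes, all but H2afy, for 77.9% of all protein-coding genes and for 15 of the 61 core histone genes (24.6%). These matches describe the annotation and not the ends of the RNA in these cells. The libraries were depleted of ribosomal RNA and not selected for poly(A), so both kinds of histone message could be measured.

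All 8 fibroblast markers looked for had reads, but Pdgfrb lay only between 0.298 and 1.11 RPKM and Thy1 between 0.732 and 2.05 RPKM. The 8 summed to 3967 and 4034 RPKM after heat shock and 7130 and 8099 RPKM in osmotic stress. They summed to 6793 and 5942 RPKM in oxidative stress and 8471 and 8116 RPKM in untreated cells. Most of each sum was S100a4, at 2467 to 6453 RPKM. Of 12 markers of other cell types, 5 stayed below 0.5 RPKM in every library, and none was at 0 in every library. The sum of the list was 11.7 and 11.7 RPKM after heat shock and 24.7 and 24.3 RPKM in osmotic stress. It was 34.0 and 31.8 RPKM in oxidative stress and 34.0 and 21.3 RPKM in untreated cells. Most of each sum was Cd68, at 8.39 to 28.6 RPKM. Against untreated cells the fibroblast marker Fn1 and the markers Cd68 and Des fell after heat shock, and Cdh1 rose in oxidative stress, with log2 changes of -1.61, -1.32, -0.72 and 1.34 (limma adjusted p = 0.0355, 0.0282, 0.0443 and 0.0369). Each of these 4 calls ended in at least 1 fit that left out a library. Of all rows, 6.62% passed after heat shock and 1.48% in oxidative stress, each against untreated cells. In oxidative stress all 5 tested markers of other cell types lay above 0, at 0.0025 to 1.66 with a median of 1.18, beside -0.10 over all rows. At an unadjusted p under 0.05 in limma there were 3, beside 17.9% of all rows. Cdh1 itself did not exceed 1.01 RPKM. Between the stresses, 2 of the 5 tested markers of other cell types fell in heat shock against osmotic stress, where 8.2% of all rows passed. In heat shock against oxidative stress 4 fell, where 14.2% passed. In osmotic against oxidative stress 3 fell, where 19.3% passed. The part of these markers in the results below was not tested. Osmotic stress replicate 1 stood apart: its RPKM summed to 1943320, against 503430 to 771673 in the other 7 libraries, 1025070 of it on the single row AC113316.1, and the nuclear RNA Malat1 was listed at 0 there. Many of the changes below that rest on this library are given with and without it, and the others only with it. Scaling every column to a common sum, given below as an alternative, counts the row AC113316.1 in the sum. It therefore lowers all other values of this library relative to the other libraries, and osmotic changes under that scaling carry the weight of this 1 row. Counts were not given, and depth is not known. Olfactory receptor values between the preset bounds of 0.012 and 0.024 RPKM were taken as 1 fragment each. Their median was 0.0146 to 0.0151 RPKM in the replicate 1 libraries and 0.0186 to 0.0205 RPKM in those of replicate 2. Each median rests on 9 to 41 rows and cannot leave the preset bounds. If these values are single fragments, the replicate 1 libraries were the deeper ones, which was not tested.

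In the comparisons with untreated cells, no replacement histone gene passed the test in any of the 3 stresses. H2afx had its highest mean in untreated cells and H2afj in oxidative stress, while H2afz, H2afv, H2afy, H3f3a and H3f3b had theirs in osmotic stress. The log2 change lay above 0 for 4 of the 7 genes after heat shock, for 6 in osmotic stress and for 2 in oxidative stress. The test was limma on log2(RPKM + 0.5), two-sided, fitted to all 8 libraries and 16056 rows, and called at a Benjamini-Hochberg adjusted p under 0.05. After heat shock 6.62% of all rows passed, in osmotic stress 0.691% and in oxidative stress 1.48%, against 0 of the 7 genes each time. At an unadjusted p under 0.05 the counts of the genes were 1, 4 and 1, where 25.5%, 22.1% and 17.9% of all rows were. The median log2 change of the 7 genes was 0.022 after heat shock, 0.34 in osmotic stress and -0.043 in oxidative stress, beside -0.094, 0.18 and -0.10 over all rows. The labels do not state whether the 2 libraries of a group are separate cultures. The p-values therefore measure only how far such libraries lie apart, which may be technical.

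**Figure D1:**
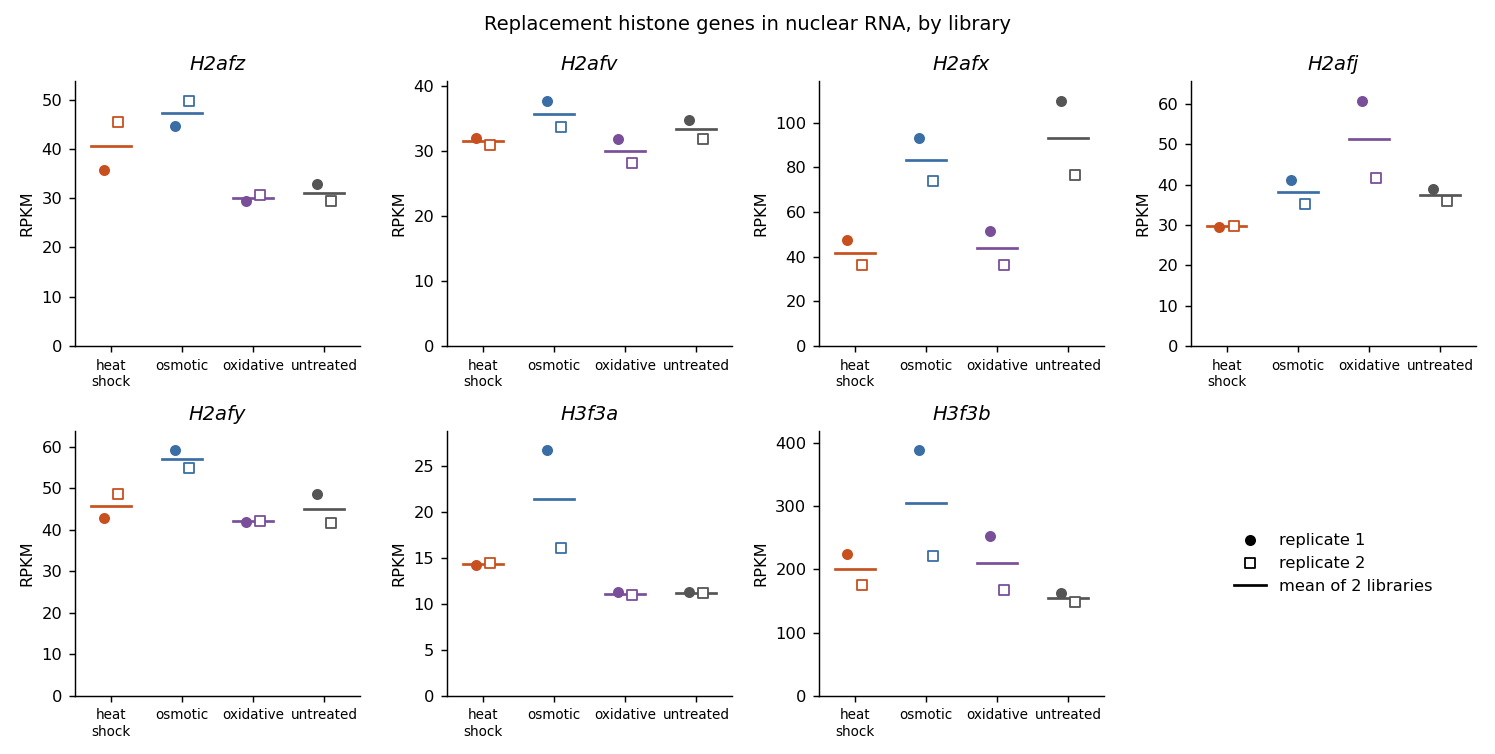
Level of each replacement histone gene in RPKM (y axis, from 0, a scale for each gene) in heat shock, osmotic stress, oxidative stress and untreated libraries (x axis), with circles for replicate 1, squares for replicate 2 and lines for the mean of 2 libraries. H2afx is at 36.1 to 51.5 RPKM in the heat shock and oxidative stress libraries and at 73.7 RPKM or more in the others, and H3f3a and H3f3b are highest in osmotic stress replicate 1.

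H2afz, one of the H2A.Z genes, had 35.7 and 45.5 RPKM after heat shock, 44.6 and 49.8 RPKM in osmotic stress, 29.5 and 30.7 RPKM in oxidative stress and 32.8 and 29.3 RPKM in untreated cells. All 4 heat shock and osmotic stress libraries lay above both untreated ones, and oxidative stress overlapped the untreated range. The log2 change against untreated cells was 0.60 ± 0.16 in osmotic stress (limma estimate ± SE, adjusted p = 0.115, 2 libraries per group), 0.37 after heat shock (adjusted p = 0.200) and -0.043 in oxidative stress (adjusted p = 0.923). The osmotic difference was 0.67 without osmotic stress replicate 1, and -0.064 when the columns were scaled to a common sum.

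H2afv, which codes for a second form of H2A.Z, stayed within 28.1 to 37.7 RPKM in all 8 libraries. It had 32.0 and 30.9 RPKM after heat shock, 37.7 and 33.7 RPKM in osmotic stress, 31.8 and 28.1 RPKM in oxidative stress and 34.8 and 31.9 RPKM in untreated cells. Its limma log2 changes were -0.080, 0.097 and -0.15 in that order of stresses, with 95% intervals of -0.40 to 0.24, -0.22 to 0.41 and -0.47 to 0.16. The adjusted p was 0.750, 0.692 and 0.593. In each library the ratio of H2afz to H2afv does not depend on how the library was scaled. It was 1.12 and 1.47 after heat shock, 1.18 and 1.48 in osmotic stress, 0.926 and 1.09 in oxidative stress and 0.942 and 0.921 in untreated cells. Heat shock and osmotic stress libraries thus had more H2afz than H2afv RNA per length, and untreated libraries slightly less.

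H2afx showed the widest difference among the 7 genes. It had 47.4 and 36.1 RPKM after heat shock, 93.2 and 73.7 RPKM in osmotic stress, 51.5 and 36.3 RPKM in oxidative stress and 109.8 and 76.6 RPKM in untreated cells. The heat shock and oxidative stress libraries all lay below both untreated libraries, while the osmotic stress libraries overlapped them. The means were 41.8 ± 8.04 RPKM after heat shock, 83.4 ± 13.8 RPKM in osmotic stress, 43.9 ± 10.8 RPKM in oxidative stress and 93.2 ± 23.5 RPKM in untreated cells (SD, n = 2 each). After heat shock the limma log2 change against untreated cells was -1.14 ± 0.27 (SE, 95% interval -1.78 to -0.50, a ratio of 0.454), with an adjusted p of 0.0566. In oxidative stress it was -1.08 ± 0.27 (interval -1.72 to -0.43, a ratio of 0.475), with an adjusted p of 0.112. Neither passed the threshold, although both intervals lay below 0. The osmotic difference was -0.15 (interval -0.79 to 0.50, adjusted p = 0.775). The log2 change stayed below 0 under every scaling and every left-out library tried, between -1.40 and -0.67 after heat shock and between -1.33 and -0.82 in oxidative stress. Its adjusted p ranged from 0.00897 to 0.780 for heat shock and from 0.0242 to 1.00 for oxidative stress over the alternatives. The lowest value of each range came from the fit with the replicate number as a block, where H2afx passed in both stresses. In these bulk libraries, fewer nuclei that hold H2afx RNA and less of it per nucleus cannot be told apart.

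Within each library H2afx was also set against the other genes. In untreated and osmotic stress libraries it was the second highest of the 7 genes, after H3f3b, while in heat shock replicate 2 and oxidative stress replicate 2 it was below H2afy. Its ratio to H2afy was 1.10 and 0.742 after heat shock, 1.57 and 1.34 in osmotic stress, 1.23 and 0.864 in oxidative stress and 2.26 and 1.84 in untreated cells. The ratio to H3f3b separated all stresses from untreated cells: it was 0.211 and 0.206 after heat shock, 0.240 and 0.332 in osmotic stress, 0.203 and 0.217 in oxidative stress and 0.676 and 0.518 in untreated cells. In osmotic stress that ratio was low with H2afx near its untreated level and H3f3b above it, whereas after heat shock and in oxidative stress H2afx itself was low. These ratios are descriptions and carry no test.

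**Figure D2:**
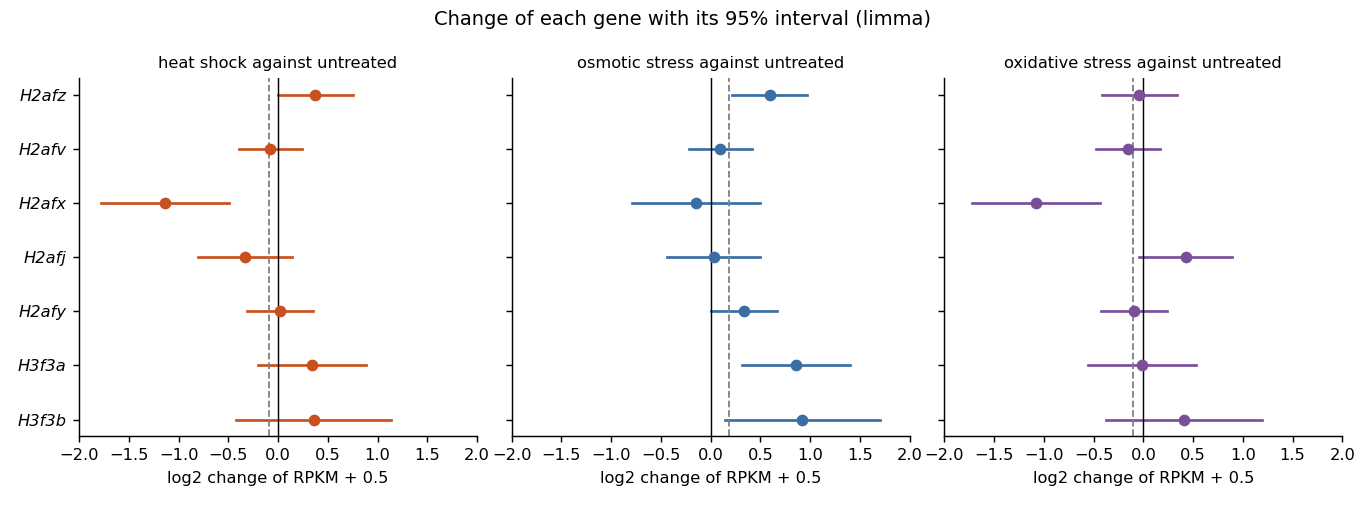
Log2 change of RPKM + 0.5 (x axis) of each replacement histone gene (y axis) in heat shock, osmotic stress and oxidative stress, each against untreated cells; points are limma estimates, bars 95% intervals, and the dashed line is the median of all 16056 rows. H2afx lies at -1.14 after heat shock and -1.08 in oxidative stress, and H3f3b at 0.92 in osmotic stress, with 0 genes past the adjusted threshold in each panel.

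H2afj codes for H2A.J, an H2A variant that differs from standard H2A near its end. It had 29.5 and 29.8 RPKM after heat shock, 41.3 and 35.3 RPKM in osmotic stress, 60.9 and 41.7 RPKM in oxidative stress and 38.9 and 36.0 RPKM in untreated cells. Both oxidative stress libraries were above, and both heat shock libraries below, the untreated ones, and osmotic stress overlapped them. The limma log2 change was 0.42 ± 0.20 (SE) in oxidative stress (adjusted p = 0.324), -0.33 after heat shock (adjusted p = 0.347) and 0.029 in osmotic stress (adjusted p = 0.950). Without oxidative stress replicate 1 the first of these was 0.16, and scaling every column to the same sum put the heat shock value at 0.14. Heat shock against oxidative stress gave -0.75 ± 0.20, with a limma adjusted p of 0.0504, on a background of 14.2% of all rows passing in that comparison. Over the alternatives that difference stayed between -1.02 and -0.48, with an adjusted p from 0.0227 to 0.774. The ratio of H2afj to H2afz was 0.826 and 0.656 after heat shock, 0.926 and 0.710 in osmotic stress, 2.07 and 1.36 in oxidative stress and 1.19 and 1.23 in untreated cells. Oxidative stress was thus the group with the most H2afj RNA for each unit of H2afz RNA, in both libraries.

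H2afy, the macroH2A1 gene, had 42.9 and 48.6 RPKM after heat shock, 59.2 and 54.9 RPKM in osmotic stress, 42.0 and 42.0 RPKM in oxidative stress and 48.6 and 41.6 RPKM in untreated cells. Only the osmotic stress libraries lay outside the untreated range on the high side, and heat shock and oxidative stress libraries lay within it. The limma log2 change was 0.34 ± 0.14 (SE) in osmotic stress (adjusted p = 0.221), 0.022 after heat shock (adjusted p = 0.945) and -0.097 in oxidative stress (adjusted p = 0.761). The osmotic value was 0.28 without osmotic stress replicate 1 (limma adjusted p = 0.523) and became -0.32 when every column was scaled to the same sum. The tables give 1 value for the gene, so the splice forms of macroH2A1 could not be told apart. The related rows H2afy2 and H2afy3 reached at most 0.0393 RPKM and were not tested.

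The H3.3 genes were the highest and the lowest of the 7 genes in every library, and both had their highest mean in osmotic stress. H3f3b, the highest, had 225 and 175 RPKM after heat shock, 389 and 222 RPKM in osmotic stress, 253 and 168 RPKM in oxidative stress and 162 and 148 RPKM in untreated cells. All 6 stress libraries lay above both untreated ones. H3f3a was the lowest, with 14.2 and 14.4 RPKM after heat shock, 26.7 and 16.1 RPKM in osmotic stress, 11.3 and 10.9 RPKM in oxidative stress and 11.3 and 11.1 RPKM in untreated cells. Heat shock and osmotic stress libraries lay above the untreated ones, and oxidative stress overlapped them. In osmotic stress the limma log2 change was 0.92 ± 0.33 (SE) for H3f3b (adjusted p = 0.176) and 0.86 ± 0.23 for H3f3a (adjusted p = 0.115), beside a median of 0.18 over all rows. Replicate 1 carried much of it: without osmotic stress replicate 1 the values were 0.52 for H3f3b (adjusted p = 0.509) and 0.50 for H3f3a (adjusted p = 0.310). Without osmotic stress replicate 2 H3f3a was at 1.21 (limma adjusted p = 0.0165, over the alternatives 0.0165 to 0.923) and H3f3b at 1.32, and scaling every column to the same sum put H3f3a at 0.21 and H3f3b at 0.25. After heat shock the limma log2 change was 0.36 for H3f3b (adjusted p = 0.540) and 0.34 for H3f3a (adjusted p = 0.403). In oxidative stress it was 0.41 for H3f3b (adjusted p = 0.562) and -0.012 for H3f3a (adjusted p = 0.992).

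The ratio of H3f3b to H3f3a was 15.9 and 12.2 after heat shock, 14.6 and 13.8 in osmotic stress, 22.4 and 15.4 in oxidative stress and 14.4 and 13.3 in untreated cells. The lead of H3f3b was therefore present in all 8 libraries, and the highest single ratio was that of oxidative stress replicate 1. H3f3a has processed copies in the genome that can share reads with it, and so its level is uncertain. The copy H3f3a-ps2 had 4.44 and 4.59 RPKM after heat shock, 9.52 and 5.73 RPKM in osmotic stress, 3.76 and 4.20 RPKM in oxidative stress and 4.98 and 3.72 RPKM in untreated cells, and was likewise highest in osmotic stress replicate 1. H3f3a-ps1 lay between 0.361 and 1.09 RPKM.

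The promoters of both H3.3 genes are printed because the genes code for 1 protein at such different levels. They are RefSeq windows of GRCm38.p6 from 250 bases before to 50 bases after the annotated start, on the minus strand, chr1:180813556-180813855 for H3f3a and chr11:116024455-116024754 for H3f3b. Capitals mark the CCAAT box, written as CCAAT or, on the other strand, ATTGG.
H3f3a: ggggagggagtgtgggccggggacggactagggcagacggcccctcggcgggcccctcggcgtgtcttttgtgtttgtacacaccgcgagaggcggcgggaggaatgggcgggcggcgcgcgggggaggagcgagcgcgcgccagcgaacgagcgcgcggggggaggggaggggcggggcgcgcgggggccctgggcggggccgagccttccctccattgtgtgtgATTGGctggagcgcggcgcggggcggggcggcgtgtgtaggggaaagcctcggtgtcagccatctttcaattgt
H3f3b: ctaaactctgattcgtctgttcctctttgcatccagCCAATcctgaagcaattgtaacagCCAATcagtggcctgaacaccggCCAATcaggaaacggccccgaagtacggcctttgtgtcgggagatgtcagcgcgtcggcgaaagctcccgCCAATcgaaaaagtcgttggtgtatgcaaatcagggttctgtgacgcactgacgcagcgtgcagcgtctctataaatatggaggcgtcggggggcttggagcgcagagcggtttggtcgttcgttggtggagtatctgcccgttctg
H3f3b held 4 CCAAT boxes, a number reached by 1.06% of 32851 promoters of the same length, and H3f3a held 1, as 37.4% of promoters do at least. The GC box GGGCGG occurred 6 times in the H3f3a window, a number reached by 1.35% of promoters, and 0 times in that of H3f3b. The TATA box TATAAA was found 1 time in H3f3b, and among all promoters in 13.6%. Of the other windows given, H2afv held 4 CCAAT boxes, H2afz and H2afj 3 each and H2afy 0, and 3.37% of promoters hold at least 3. H2afx had no entry. All motifs were searched on both strands, and overlapping matches were counted each, as in 2 pairs of the 6 GC boxes of H3f3a. The heat shock element core GAANNTTC (7.86% of promoters) and the AP-1 site TGANTCA (7.81%) were in none of the 6 windows. A match is only a match of letters.

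The second rows of H2afv and H3f3b are separate gene models under the same symbol and were measured apart from the main rows. They could not be placed in the genome, since no annotation of the files' build was used, and only their neighbours in the tables are known. The second H3f3b row, which the tables list directly after H3f3a, had 4.04 and 4.54 RPKM after heat shock, 0.742 and 0.829 RPKM in osmotic stress, 1.21 and 2.25 RPKM in oxidative stress and 1.83 and 1.91 RPKM in untreated cells. Heat shock libraries were above, and osmotic stress libraries below, all others. This row rose after heat shock against osmotic stress, by 1.90 ± 0.24 on the log2 scale (limma, adjusted p = 0.0139), and against oxidative stress, by 1.14 ± 0.24 (adjusted p = 0.0310). Against untreated cells it was at 1.01 after heat shock (limma adjusted p = 0.0591, interval 0.43 to 1.60), -0.88 in osmotic stress (adjusted p = 0.120) and -0.13 in oxidative stress (adjusted p = 0.829). The call against osmotic stress ended without any 1 heat shock library or osmotic stress replicate 1, where the limma log2 change was 1.97, 1.82 and 1.85 (adjusted p = 0.104, 0.0959 and 0.0593). The call against oxidative stress ended without any 1 heat shock or untreated library or oxidative stress replicate 1, with log2 changes of 0.80 to 1.21. The main H3f3b row had its highest library in osmotic stress, where the second row was lowest, and after heat shock both rows lay above both untreated libraries. Reads of near-identical copies can be divided between rows, and whether they were here was not tested. The second H2afv row, listed between an H2afz row and Dnajb14, had 13.7 and 9.39 RPKM after heat shock, 13.6 and 0.852 RPKM in osmotic stress, 7.55 and 6.76 RPKM in oxidative stress and 11.3 and 9.81 RPKM in untreated cells. Its osmotic stress libraries were far apart, and so no direction is given. The second H2afz row, listed between Ppia and an H2afv row, reached at most 0.180 RPKM and was not tested. Each second row thus stands directly beside a row of its partner gene, H2afz beside H2afv, H2afv beside H2afz and H3f3b beside H3f3a. Whether a second row lies at the locus of that partner was not tested. Its symbol may therefore not name the gene that was measured.

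**Figure D3:**
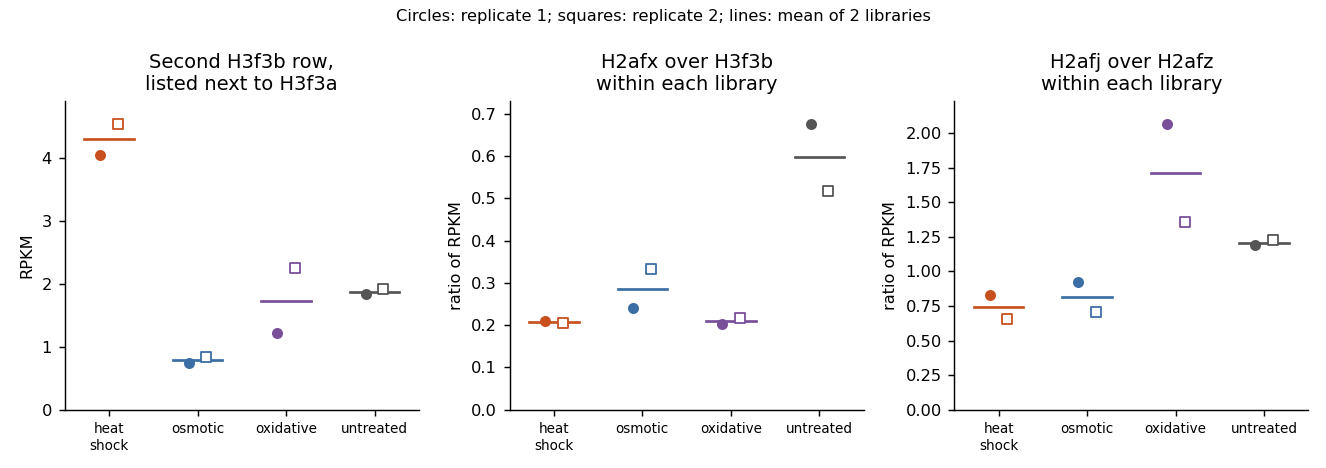
Left, level in RPKM of the second H3f3b row, listed next to H3f3a; centre, ratio of H2afx to H3f3b; right, ratio of H2afj to H2afz, each by group (x axis) with circles for replicate 1, squares for replicate 2 and lines for the mean of 2 libraries. The second row is at 4.04 and 4.54 RPKM after heat shock, and the H2afx ratio is at most 0.332 in the stresses and at least 0.518 in untreated cells.

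The replication-dependent core histone genes were set beside H2afx, which has the hairpin found in 40 of the 61 annotated genes of that kind. Their rows were not split by the hairpin, so its part in the values below was not tested. Of 72 rows of such genes 68 were tested, 30 fell and 0 rose after heat shock, where 6.62% of all rows passed. Their median log2 change was -1.28, beside -1.14 for H2afx and -0.094 over all rows. In oxidative stress 1 fell and 0 rose, where 1.48% of all rows passed. At an unadjusted p under 0.05 there were 50 of the 68, beside 17.9% of all rows. In that stress 64 of 68 were below 0, and the median was -0.89, beside -1.08 for H2afx. In osmotic stress 0 passed in limma, where 0.691% of all rows did. At an unadjusted p under 0.05 there were 3, beside 22.1% of all rows. In osmotic stress 60 of 68 were above 0, and the median was 0.29, beside -0.15 for H2afx. Without osmotic stress replicate 1 that median was 0.011, beside -0.31 for H2afx, and when every column was scaled to the same sum it was -0.38. The other 6 replacement histone genes lay between -0.33 and 0.37 after heat shock and between -0.15 and 0.42 in oxidative stress. The summed level of the core histone rows was 16550 and 11640 RPKM after heat shock, 36870 and 24070 RPKM in osmotic stress, 15250 and 12800 RPKM in oxidative stress and 27510 and 22640 RPKM in untreated cells. The low groups of that sum were the low groups of H2afx, and the part of either in the other was not tested. The counts are not firm. That of 30 after heat shock was 0 without heat shock replicate 1, without heat shock replicate 2 or without untreated replicate 1, 2 without untreated replicate 2, 5 without either oxidative stress library, 4 with no filter on low values, 3 with only the 4 libraries compared and 0 when every column was scaled to the same sum, against 39 with a common upper quartile and 41 without either osmotic stress library. That of 1 in oxidative stress was 0 without any 1 heat shock, oxidative stress or untreated library and 4 with a common upper quartile. Copies of core histone genes are near-identical and can share reads, so single rows are uncertain.

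**Figure D4:**
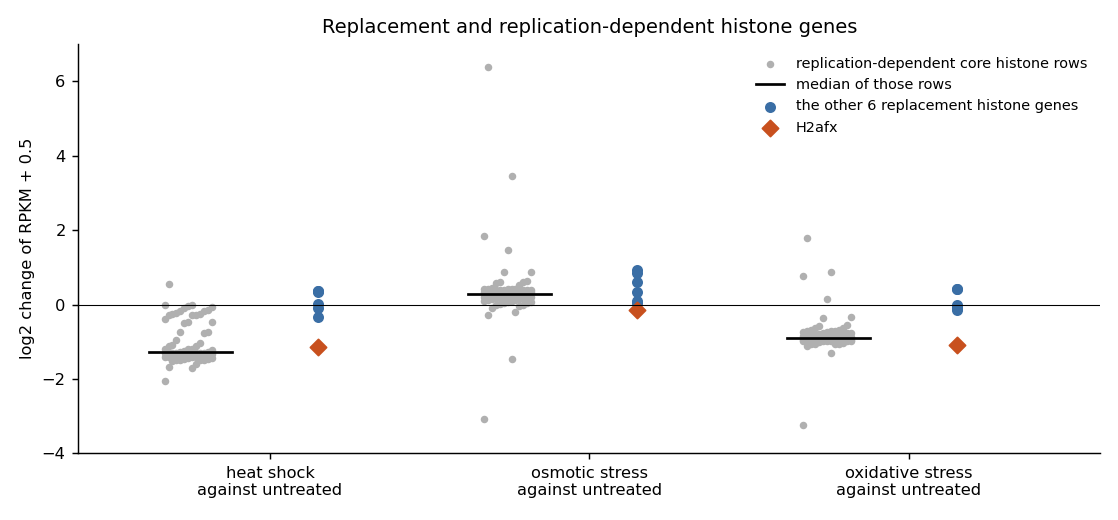
Log2 change of RPKM + 0.5 (y axis) in heat shock, osmotic stress and oxidative stress, each against untreated cells (x axis), for 68 replication-dependent core histone rows (grey, with a black line at their median), H2afx (diamond) and the other 6 replacement histone genes (blue). H2afx lies at -1.14, -0.15 and -1.08, beside medians of the core histone rows of -1.28, 0.29 and -0.89.

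Between the stresses, 2 of the 7 genes passed, both in osmotic against oxidative stress, where 19.3% of all rows did. H3f3a rose by 0.87 ± 0.23 on the log2 scale (limma, adjusted p = 0.0434) and H2afz by 0.64 ± 0.16 (adjusted p = 0.0389), against a median of 0.27 over all rows. Both calls ended with median-of-ratios scaling, where the limma log2 changes were 0.56 and 0.32 (adjusted p = 0.120 and 0.197), and scaling every column to the same sum gave 0.029 for H3f3a and -0.22 for H2afz. Without osmotic stress replicate 1 they were 0.51 for H3f3a and 0.72 for H2afz (limma adjusted p = 0.116 and 0.112). The H2afz call ended without any 1 of the 8 libraries, and the H3f3a call without any 1 but osmotic stress replicate 2, where it was at 1.23 (limma adjusted p = 0.0130, over the alternatives 0.0130 to 0.987). H2afx was at 0.93 in the same comparison (limma adjusted p = 0.0548) and at -0.99 in heat shock against osmotic stress (adjusted p = 0.0720). These were 0.76 and -0.83 without osmotic stress replicate 1 (limma adjusted p = 0.204 and 0.237), and when every column was scaled to the same sum they were 0.069 and 0.15. In heat shock against osmotic stress all 7 genes lay below 0, with a median of -0.36 beside -0.26 over all rows. That did not hold when every column was scaled to the same sum, where H2afx was above 0 and the median over all rows was 0.71. Heat shock against osmotic stress had 0 of 7 genes past the threshold in limma, where 8.2% of all rows passed. At an unadjusted p under 0.05 there was 1, beside 27.5% of all rows. Heat shock against oxidative stress also had 0 of 7, where 14.2% of all rows passed. At an unadjusted p under 0.05 there were 2, beside 33.1% of all rows.

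Genes that handle these histones were read from the same fit. Of 7 genes for the deposition of H3.3, 0 passed in any stress against untreated cells in limma. Of all rows, 6.62% passed after heat shock, 0.691% in osmotic stress and 1.48% in oxidative stress. At an unadjusted p under 0.05 there were 2, 4 and 0 of the 7, beside 25.5%, 22.1% and 17.9% of all rows. Their medians were 0.23 after heat shock, 0.53 in osmotic stress and -0.11 in oxidative stress, beside -0.094, 0.18 and -0.10 over all rows. Hira, the core of the complex that places H3.3 in transcribed genes, had 14.9 and 14.3 RPKM after heat shock, 17.3 and 16.1 RPKM in osmotic stress, 11.7 and 11.0 RPKM in oxidative stress and 12.5 and 10.3 RPKM in untreated cells. Its osmotic log2 change was 0.54 (limma adjusted p = 0.113), and that of its partner Ubn1 was 0.56 (adjusted p = 0.0996), and without osmotic stress replicate 1 both were 0.49 (adjusted p = 0.361 and 0.334). When every column was scaled to the same sum, both were below 0, at -0.10 for Hira and -0.093 for Ubn1. In osmotic against oxidative stress, where 19.3% of all rows passed and their median was 0.27, 4 of the 7 rose: Daxx, the H3.3 chaperone of telomeres, by 1.04, Ubn1 by 0.80, the H3-H4 chaperone Asf1a by 0.74 and Hira by 0.54 (limma adjusted p = 0.0283, 0.0216, 0.0462 and 0.0439). Without osmotic stress replicate 1 they were at 0.89, 0.73, 0.55 and 0.49 and no longer passed (limma adjusted p = 0.121, 0.0954, 0.186 and 0.163). The calls likewise ended without any 1 heat shock or oxidative stress library, and when every column was scaled to the same sum Ubn1, Asf1a and Hira were below 0. Ubn1 also rose after heat shock against oxidative stress, by 0.80 (limma adjusted p = 0.0168), a call that ended without any 1 heat shock or oxidative stress library.

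Of 12 genes for the exchange of H2A.Z, 1 fell after heat shock against untreated cells, where 6.62% of all rows passed. In osmotic and oxidative stress 0 passed in limma, where 0.691% and 1.48% of all rows did. At an unadjusted p under 0.05 there were 3, 3 and 4 of the 12, beside 25.5%, 22.1% and 17.9% of all rows, with heat shock first and oxidative stress last. Dmap1, a subunit of the exchange complexes, had 8.48 and 8.90 RPKM after heat shock, 13.8 and 14.0 RPKM in osmotic stress, 10.7 and 10.7 RPKM in oxidative stress and 17.6 and 16.9 RPKM in untreated cells. It fell by 0.95 on the log2 scale after heat shock (limma adjusted p = 0.0130), and without any 1 heat shock or untreated library it was at -0.98 to -0.92 and no longer passed (adjusted p = 0.0575 to 0.121). Dmap1 also fell after heat shock against osmotic stress, by 0.65 (limma adjusted p = 0.0264), where 8.2% of all rows passed. This was -0.68 to -0.61 without any 1 heat shock or osmotic stress library and no longer passed (limma adjusted p = 0.0632 to 0.182), the call likewise ended without any 1 oxidative stress library, and when every column was scaled to the same sum it was 0.44. After heat shock against oxidative stress, where 14.2% of all rows passed, 2 of the 12 rose. Yeats4, a reader subunit, rose by 1.05 and Ep400, the motor of one such complex, by 0.83 (limma adjusted p = 0.0150 and 0.0190), and both calls ended without any 1 heat shock or oxidative stress library. In osmotic against oxidative stress 3 of the 12 rose, with 19.3% of all rows passing. Yeats4 rose by 0.94, Znhit1 by 0.63 and Anp32e, a chaperone that removes H2A.Z, by 0.59 (limma adjusted p = 0.0225, 0.0338 and 0.0319). With median-of-ratios scaling Znhit1 and Anp32e were at 0.32 and 0.28 and no longer passed, and when every column was scaled to the same sum both were below 0. Without osmotic stress replicate 1 Yeats4, Znhit1 and Anp32e were at 0.78, 0.58 and 0.48 (limma adjusted p = 0.0964, 0.134 and 0.132), and the 3 calls likewise ended without any 1 heat shock or oxidative stress library. Of 4 chaperones of H2A and H2B, 0 passed in any comparison in limma, where 0.691% to 19.3% of all rows did. After heat shock against untreated cells 2 were at an unadjusted p under 0.05, beside 25.5% of all rows. Ssrp1 of the FACT complex was at -0.77 after heat shock (limma adjusted p = 0.0716). Of 8 genes that act on H2A.X at DNA breaks, Atm among them, 0 passed in any of the 6 comparisons in limma, where 0.691% to 19.3% of all rows did. At most 1 was at an unadjusted p under 0.05, beside 17.9% to 39.2% of all rows. Their medians against untreated cells were -0.099 after heat shock, 0.050 in osmotic stress and -0.21 in oxidative stress. Of 8 other variant histone genes 3 were tested and 0 passed against untreated cells in limma, where 0.691% to 6.62% of all rows did. In oxidative stress 1 was at an unadjusted p under 0.05, beside 17.9% of all rows. Among the 3 tested, Cenpa, the centromeric H3, had 58.5 and 41.3 RPKM after heat shock and 67.6 and 42.3 RPKM in osmotic stress. It had 33.5 and 20.1 RPKM in oxidative stress and 49.1 and 27.7 RPKM in untreated cells. The linker histone gene H1f0 rose in osmotic against oxidative stress, by 0.94 (limma adjusted p = 0.0452). The call ended without any 1 of the 8 libraries, with changes of 0.64 to 1.24 (limma adjusted p = 0.0518 to 0.177), and the change was 0.071 when every column was scaled to the same sum.

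Across the 8 libraries the genes fell into no single pattern. The log2 levels of H3f3a and H3f3b had a Pearson r of 0.828, those of H2afz and H2afy 0.841 and those of H2afv and H2afx 0.834, whereas H2afz and H2afx had 0.072 and H2afz and H2afj -0.470. These values describe 8 libraries in 4 groups, with 1 library of each group per replicate number and depth not known, and carry no p. Among 8704 rows of at least 5 RPKM, the rows most like each gene were Cdk9 for H2afz (r = 0.987), Pus1 for H2afv (0.987), Alkbh6 for H2afx (0.977), Rabggtb for H2afj (0.973), Mageb7-ps for H2afy (0.981), Gm9833 for H3f3a (0.989) and Styk1 for H3f3b (0.966), each over 8 libraries. Alkbh6 had 4.99 and 4.50 RPKM after heat shock, 7.61 and 6.71 RPKM in osmotic stress, 5.45 and 5.00 RPKM in oxidative stress and 8.38 and 6.35 RPKM in untreated cells, a narrower spread than that of H2afx.

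Upstream neighbours on the same strand, from RefSeq's gene order in GRCm38.p6, had levels of their own. Dpagt1, upstream of H2afx, had 5.48 and 4.91 RPKM after heat shock, 6.60 and 5.99 RPKM in osmotic stress, 4.52 and 4.54 RPKM in oxidative stress and 9.03 and 5.58 RPKM in untreated cells. Its level was far below that of H2afx in every library. Ephx1, upstream of H3f3a, was higher than H3f3a throughout, at 54.1 and 40.2 RPKM after heat shock, 97.5 and 84.5 RPKM in osmotic stress, 121 and 104 RPKM in oxidative stress and 164.5 and 83.9 RPKM in untreated cells. Unc13d, upstream of H3f3b, did not exceed 1.51 RPKM. Whether transcripts of a neighbour add to a gene's value was not tested.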

How the data were processed

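RPKM per gene model were deposited by the authors for each library in 2 tables, 1 per replicate number. The submitters' processing notes name Bowtie, SAMtools, Cufflinks and the mouse build mm9. Versions, gene annotation, counted strand and filters: not given in the sources used here. All columns matched a group and replicate. The tables give no counts, so no counting intervals were computed. The 16056 rows that reached 0.5 RPKM in 2 or more of the 8 libraries were tested. One limma model (limma 3.58.1, R 4.3.3) of 4 group means was fitted to log2(RPKM + 0.5) as deposited, with a mean trend, and p-values were adjusted over all rows tested. A fold on this scale understates changes of low rows. The script was tested on simulated data. Exact permutation of 2 against 2 libraries cannot give a two-sided p below 0.333 and was not used. All 7 genes are named, with genes past the threshold on the lists of histone handling and other variant histones (up to 4 per list and comparison), examples and, for likeness, the likest row of at least 5 RPKM. Genes and lists were chosen with earlier results of these data known. Motifs and hairpins came from RefSeq promoters and GENCODE transcripts, and 6 of 7 genes matched a promoter. The 19 alternatives changed the pseudocount, filter, scaling, trend, block or libraries.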

Additional observations from a re-analysis of the deposited data

How the results depend on the processing

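With 2 libraries a group, single calls depend on single libraries, and RPKM without counts leave the counting error unknown. Of 987 recomputed log2 changes of single genes, 736 kept their direction and their side of the threshold, 183 lost a call, 20 gained one and 48 changed sign. Only changes called in the main fit could lose a call, and most of the 987 were of changes not called there. The 183 of 987 therefore understates how often calls were lost. Why they did was not tested. Columns scaled to a common sum give weight to the 1025070 RPKM of row AC113316.1 in osmotic stress replicate 1, which bears on comparisons with osmotic stress. The column sums were 552067 and 503430 RPKM in heat shock, 657681 and 624348 in oxidative stress and 771673 and 699811 in untreated cells. Under common-sum scaling the median of all rows was 0.31 in heat shock, -0.36 in osmotic stress and 0.073 in oxidative stress, each against untreated cells.

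The calls over all rows were 1063, 111 and 238 for heat shock, osmotic and oxidative stress against untreated cells, 1316 for heat shock against osmotic stress, 2273 for heat shock against oxidative stress and 3101 for osmotic against oxidative stress. In that order of 6 comparisons, a fit with only the 4 libraries compared called 241, 2 and 5 in the first 3, 60 in the fourth and 10 in the sixth. Columns scaled to a common sum gave 370 in the first, 558, 577 and 788 in the last 3. Median-of-ratios scaling gave 421 in the third, 527 in the fourth and 1659 in the sixth, the common upper quartile 509, 621 and 1768, and quantile normalization 547 in the fourth and 1415 in the sixth. The third had 880 with no filter, 33 with a filter at 2 RPKM and 375 with no mean trend. Leaving out 1 library gave 73 to 1231, 8 to 777, 11 to 229, 73 to 1138, 107 to 2307 and 14 to 2890.

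Replacement histone genes called were 0 in the first 5 comparisons and 2 in the sixth. After heat shock against untreated cells they were 2 with quantile normalization (H2afx and H3f3b) and 1 with a common upper quartile (H2afx). Of all 16056 rows, 1273 and 1390 passed in these fits. In heat shock against oxidative stress they were 1 (H2afj) with median-of-ratios scaling, quantile normalization or a common upper quartile. There 3022, 2945 and 3064 of all 16056 rows passed. In the sixth they were 0 with no filter, median-of-ratios scaling, a common sum or only the 4 libraries compared, and 1 with quantile normalization or a common upper quartile. With no filter 2867 of 32028 rows passed there, and the counts for the other settings are given above. Leaving out 1 library gave 0 to 1 in osmotic stress against untreated cells, in both comparisons of heat shock with another stress and in the sixth.

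Only 2 replicate numbers exist, and no label says that a number marks a shared culture or day. Deviations of replicate 1 correlated with r = 0.0624 to 0.264 between groups. With the number as a replicate block, calls over all rows were 2124, 433, 412, 2483, 3836 and 5228, and replacement histone genes called were 1 for heat shock (H2afx, limma adjusted p = 0.00897), 0 for osmotic and 1 for oxidative stress (H2afx, 0.0242), each against untreated cells, then 1, 1 and 4. Core histone rows called against untreated cells were 45 for heat shock, 0 for osmotic and 11 for oxidative stress under the block.

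These log2 changes took the opposite sign when columns were scaled to a common sum. In heat shock against untreated cells H2afv was 0.39 and H2afj 0.14. In osmotic stress against untreated cells H2afz was -0.064, H2afv -0.56, H2afj -0.63, H2afy -0.32, Hira -0.10 and Ubn1 -0.093. In oxidative stress against untreated cells H2afz was 0.15, H2afv 0.041, H2afy 0.098, H3f3a 0.18 and the second H3f3b row 0.026. In osmotic against oxidative stress H2afz was -0.22, Hira -0.29, Ubn1 -0.047, Asf1a -0.072, Znhit1 -0.22 and Anp32e -0.25, and in heat shock against osmotic stress H2afx was 0.15 and Dmap1 0.44. With median-of-ratios scaling, quantile normalization and a common upper quartile, in that order, against untreated cells, H2afz in oxidative stress was 0.068, 0.0924 and 0.097, H2afy 0.014, 0.030 and 0.043 and H3f3a 0.095, 0.11 and 0.12. In osmotic stress H2afv was -0.11, -0.11 and -0.10 and H2afj -0.17, -0.17 and -0.17. In heat shock H2afv was 0.036 and 0.0052 with the first 2.

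Leaving out 1 library also turned small changes against untreated cells. The ranges were -0.12 to 0.036 for H2afz, -0.21 to 0.015 for H2afy, -0.039 to 0.014 for H3f3a and -0.47 to 0.22 for the second H3f3b row in oxidative stress, -0.40 to 0.11 for H2afx and -0.082 to 0.14 for H2afj in osmotic stress, and -0.090 to 0.13 for H2afy in heat shock.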
